A study of Danio rerio with 6 samples.

Results

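The enzymes described here are those that attach a sugar acid, glutathione or sulphate to small molecules, or that oxidise alcohols and aldehydes. They were taken from the gene table of adult zebrafish olfactory epithelium as every row whose name begins with ugt, sult, aldh or adh and a digit, or with gst and a letter, ignoring case. This gave 77 of the 33737 genes in the table. They comprise 24 UDP-glycosyltransferases (UGT), 13 glutathione S-transferases (GST), 16 sulfotransferases (SULT), 21 aldehyde dehydrogenases (ALDH) and 3 alcohol dehydrogenases (ADH). The study asked which transcripts differ in the adult olfactory organ after exposure of the young fish to phenylethyl alcohol (PEA), an odorant that smells of roses. The PEA group received PEA daily over 3 weeks of development and the control group received distilled water on the same schedule, and both were then raised without further exposure as far as the labels state. Both groups came from the strain named New wild type (AB derived line), and the labels give 10 fish per group and an age of 6 months at collection. The methods of the study name an older range for its adult fish and another wild-type strain name. Each group had 3 libraries, PEA 1 to 3 and control 1 to 3, labelled as biological triplicates, and whether each library pooled several fish is not given in the sources used here.

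PEA is a primary alcohol. ADH enzymes oxidise such alcohols to aldehydes and ALDH enzymes oxidise aldehydes to acids. UGT enzymes transfer glucuronic acid from a UDP-sugar, SULT enzymes transfer sulphate from the donor PAPS, and GST enzymes transfer glutathione to reactive molecules, all of which makes a molecule easier to export. In mammals the olfactory mucosa is rich in these enzymes, mainly in the sustentacular cells and glands that surround the neurons, and they are thought to shorten the stay of an odorant. Some members have other jobs: ugt8 uses galactose to make galactosylceramide, a lipid of myelin, aldh6a1, aldh7a1 and gstz1 act in the breakdown of amino acids, and gstcd holds only the C-terminal domain of a GST.

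The libraries held 43590575 to 46153505 counts in the PEA group and 45153814 to 49085973 counts in the control group. The 77 enzymes took 0.245% to 0.257% of the counts in PEA libraries and 0.245% to 0.260% in control libraries. The tissue label was checked on markers. Of 8 markers of olfactory neurons 6 were found, and their summed level was 1781, 1890 and 2229 CPM in PEA 1, 2 and 3, against 1928, 1829 and 1916 CPM in control 1, 2 and 3. CPM are counts per 1000000 of the library size after TMM scaling, which corrects for differences in composition. Markers of liver, the organ richest in these enzymes, summed to 2.09 to 3.11 CPM in PEA libraries and 2.27 to 2.71 CPM in control libraries over 9 genes. One set of genes set libraries apart within each group. The 5 targets of glucocorticoid hormones summed to 2381, 1188 and 639 CPM in PEA 1, 2 and 3, against 2412, 373 and 274 CPM in control 1, 2 and 3, so the library numbered 1 was highest in both groups. The class counts below are also given with the libraries numbered 2 and 3 alone. That setting does not make the groups alike in these targets. Their sums there were 1188 and 639 CPM in PEA 2 and 3, against 373 and 274 CPM in control 2 and 3. It also leaves only 2 libraries per group.

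No member passed the test in either direction. The quasi-likelihood test of edgeR, adjusted by Benjamini-Hochberg over the 20628 genes with enough counts, called 0 of the 62 members tested, and 0% of all genes. The lowest adjusted p among the members was 1.00, and over all genes it was 0.481. DESeq2 called 0 of the 76 members with an adjusted p, against 0.0184% of all genes. Before adjustment 2 members had an edgeR p under 0.05, ugt5b4 and sult3st1, against 1.66% of all genes. DESeq2 gave 1 such member, against 348 of the 27192 genes with a DESeq2 adjusted p. The log2 fold change of PEA over control was above 0 in 29 members and below 0 in 33, with a median of -0.01 beside -0.005 over all genes tested. It ran from -0.43 for aldh3b2 to 0.54 for sult3st1. All 3 PEA libraries lay below all 3 control libraries in 1 member, aldh9a1b (1.61% of the members tested, against 2.94% of all genes), and above them in 2 members, ugt5b4 and ugt5e1 (3.23% of the members tested, against 2.56% of all genes). These p-values set the difference between the groups against the spread between the libraries at hand. Whether that is a spread between single fish is not known. In whole tissue, fewer cells of a type and less RNA per cell cannot be told apart.

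A p that misses the threshold does not show that a level is unchanged, so the 95% interval of each fold change was read against 2 limits. In 54 of the 62 members the interval excluded a change of 2-fold in either direction, as in 17558 of the 20628 genes tested. In 47 it excluded a change of 1.5-fold, as in 12690 of all genes. By class, the 2-fold limit was met by 15 of 18 UGT, 10 of 11 GST, 7 of 10 SULT, 19 of 20 ALDH and 3 of 3 ADH members. For the members outside it a 2-fold change was not excluded by these libraries. The plot of fold changes with their intervals shows each member tested.

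**Figure D1:**
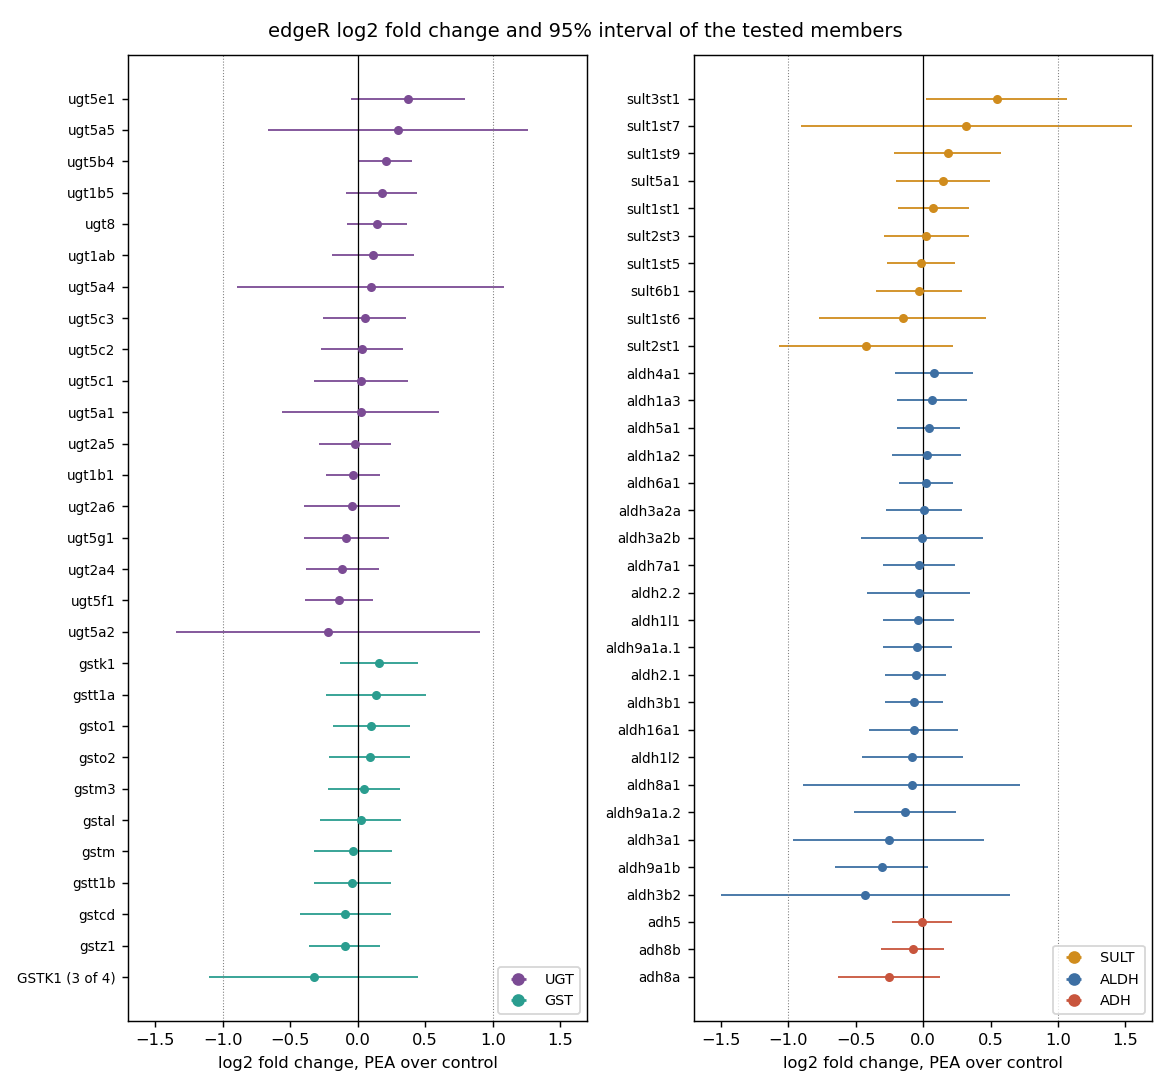
Log2 fold change (PEA over control) of the 62 members tested, with 95% intervals from edgeR, grouped by enzyme class. The values run from -0.43 for aldh3b2 to 0.54 for sult3st1, and the intervals of ugt5b4 and sult3st1 alone leave out 0 before any adjustment.

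The classes as wholes were compared by adding the CPM of their members in each library. Summed UGT counts were 479, 527 and 485 CPM in PEA 1, 2 and 3, against 475, 459 and 470 CPM in control 1, 2 and 3. The groups did not overlap, and the difference of the mean log2 sums was 0.08 with a standard error of 0.05 (exact permutation test over the 6 libraries, two-sided, p = 0.1, the smallest this design allows, and 0.5 adjusted over the 5 classes). With counts scaled by library totals alone the UGT sums were 483, 496 and 496 CPM in PEA 1, 2 and 3 and 454, 478 and 484 CPM in control 1, 2 and 3, and the groups then overlapped. The ADH sums were 211, 219 and 228 CPM in PEA 1, 2 and 3, against 248, 210 and 219 CPM in control 1, 2 and 3, with control 1 above all others. SULT gave 616 ± 93.0 CPM in the PEA group and 614 ± 61.4 CPM in the control group (SD, n = 3 each). GST gave 447 ± 24.2 CPM in the PEA group and 435 ± 56.2 CPM in the control group. ALDH gave 763 ± 18.7 CPM in the PEA group and 768 ± 50.1 CPM in the control group. Apart from UGT the groups overlapped in every class, with differences on the log2 scale of 0.00 ± 0.15 (SE) for SULT, 0.05 ± 0.11 for GST, -0.01 ± 0.06 for ALDH and -0.04 ± 0.08 for ADH.

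**Figure D2:**
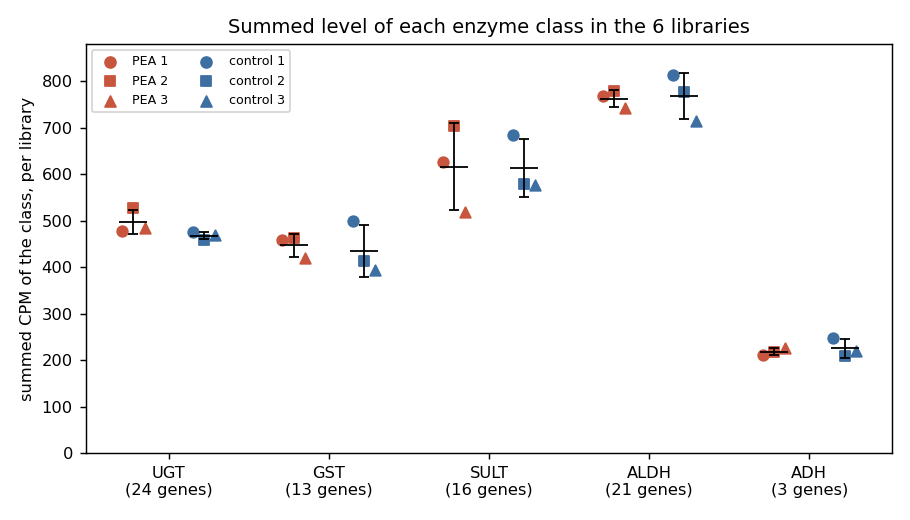
Summed CPM of each enzyme class in every library, PEA left of control, with each group mean as a dash and its SD as a bar. The 3 PEA libraries lie above the 3 control libraries in UGT (479 to 527 CPM against 459 to 475 CPM), and the groups overlap in the other classes. With ugt8 left out, the UGT groups overlap too.

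These sums rested on few members. Counts also grow with transcript length, which was not available here, so a share of a class's counts is not a share of its molecules. Sult2st3 held 71.0% to 75.2% of SULT counts over the 6 libraries, and adh5 held 70.4% to 73.9% of ADH counts. Ugt8 held 40.8% to 45.8% of UGT counts. The UGT sums of the 2 groups were apart by a narrow gap, between PEA 1 at 479 CPM and control 1 at 475 CPM. With ugt8 left out, the UGT sum of control 1 lay above those of PEA 1 and PEA 3. In the 2 other classes the leading member held less, 23.4% to 28.4% for gsto2 and 20.9% to 24.4% for aldh1a2.

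Among the alcohol dehydrogenases, the log2 fold change was below 0 in 3 of 3 members and none passed the test. With the libraries numbered 2 and 3 alone it was above 0 in 2 and below 0 in 1. A further gene of this family by its current name, adh5l, is not taken by the rule. It went the other way, with a log2 fold change of 0.40 ± 0.15 (SE), and its values are given with the genes outside the rule. Adh5 (ENSDARG00000080010), the class III enzyme that oxidises formaldehyde bound to glutathione, was at 150, 162 and 167 CPM in PEA 1, 2 and 3, against 176, 151 and 154 CPM in control 1, 2 and 3. The groups overlapped, and the log2 fold change was -0.01 ± 0.10 (SE) with a 95% interval of -0.23 to 0.21. Adh8a (ENSDARG00000091211), whose product is known to oxidise ethanol in zebrafish, was at 21.0, 16.4 and 20.5 CPM in PEA 1, 2 and 3, against 24.3, 17.9 and 26.7 CPM in control 1, 2 and 3. Control 3 and control 1 were the highest and PEA 2 the lowest, and the log2 fold change was -0.25 ± 0.16, with an interval of -0.63 to 0.12 and an edgeR adjusted p of 1.00. It ran from -0.40 without control 2 to -0.13 without control 3. Its neighbour on the chromosome, adh8b (ENSDARG00000024278), was at 39.5, 40.6 and 40.0 CPM in PEA 1, 2 and 3, against 47.8, 40.7 and 38.2 CPM in control 1, 2 and 3. For adh8b the PEA libraries lay within the range of the control libraries, with a log2 fold change of -0.08 ± 0.10. The direction of adh5 and adh8b rested on control 1, since without that library the log2 fold changes were 0.07 and 0.03.

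The aldehyde dehydrogenases had log2 fold changes above 0 in 6 of 20 members tested and below 0 in 14, with a median of -0.04, and none passed the test. With library totals in place of TMM the ratio of group means was above 1 in 3 and below 1 in 17, and all genes then shifted by -0.02 on the log2 scale. With the libraries numbered 2 and 3 alone the split turned, with 12 members above 0 and 8 below and a median of 0.02, and without control 1 it was 10 above and 10 below. The member whose groups did not overlap was aldh9a1b (ENSDARG00000037061), related to the enzyme that in mammals oxidises aminobutyraldehydes, with 3.64, 3.74 and 4.28 CPM in PEA 1, 2 and 3, against 4.70, 4.67 and 5.02 CPM in control 1, 2 and 3. Its log2 fold change was -0.30 ± 0.15 (interval -0.65 to 0.04, edgeR adjusted p = 1.00), and it ran from -0.38 to -0.26 over the 6 fits that each leave out a library. Its relative aldh9a1a.1 was at 174, 143 and 146 CPM in PEA 1, 2 and 3, against 176, 151 and 150 CPM in control 1, 2 and 3, so both libraries numbered 1 were the highest. The log2 fold change of aldh9a1a.1 was -0.04 ± 0.11.

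Aldh1a2 and aldh1a3 make retinoic acid from retinal. Aldh1a2 (ENSDARG00000053493) was at 161, 186 and 175 CPM in PEA 1, 2 and 3, against 172, 189 and 150 CPM in control 1, 2 and 3, which overlap (log2 fold change 0.03 ± 0.11). Aldh1a3 (ENSDARG00000076933) was at 16.0, 15.6 and 16.1 CPM in PEA 1, 2 and 3, against 15.5, 16.6 and 13.4 CPM in control 1, 2 and 3, again overlapping (0.07 ± 0.11). The mitochondrial aldh2 pair, whose mammalian relative clears acetaldehyde, lies side by side on a chromosome. Aldh2.1 averaged 29.7 ± 1.85 CPM in the PEA group and 30.9 ± 2.53 CPM in the control group (SD, n = 3 each), and aldh2.2 averaged 16.8 ± 1.95 CPM in the PEA group and 17.2 ± 3.76 CPM in the control group. Control 1 was the highest library for both. The log2 fold changes were -0.06 ± 0.10 (SE) for aldh2.1 and -0.03 ± 0.17 for aldh2.2, against 0.01 and 0.17 without control 1 and 0.05 and 0.26 with the libraries numbered 2 and 3 alone. Aldh6a1, of valine breakdown, differed by at most 1.12-fold between libraries, with 146, 153 and 137 CPM in PEA 1, 2 and 3, against 147, 145 and 138 CPM in control 1, 2 and 3. Aldh7a1, of lysine breakdown, averaged 71.6 ± 4.30 CPM in the PEA group and 73.0 ± 10.4 CPM in the control group, with a log2 fold change of -0.03 ± 0.12, or 0.12 with the libraries numbered 2 and 3 alone. The lowest fold change of the class, that of aldh3b2 (named aldh3b4 in the current gene table), came from 0.227, 0.674 and 1.12 CPM in PEA 1, 2 and 3, against 0.973, 0.841 and 0.924 CPM in control 1, 2 and 3. PEA 1 set it, as PEA 3 was above every control library. The log2 fold change of -0.43 ± 0.47 had an interval of -1.50 to 0.64 and was -0.01 without PEA 1 and -1.02 without PEA 3. The other 11 members tested had log2 fold changes of -0.26 to 0.08, 0 of them with an edgeR p under 0.05. They include enzymes of fatty aldehydes (aldh3a2a, aldh3a2b), the neurotransmitter GABA (aldh5a1), proline (aldh4a1) and folate (aldh1l1, aldh1l2).

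The UDP-glycosyltransferases had log2 fold changes above 0 in 11 of 18 members tested and below 0 in 7, with a median of 0.03. With library totals the ratio of group means was above 1 in 9 and below 1 in 9, and with the libraries numbered 2 and 3 alone 12 were above 0 and 6 below. Ugt5b4 (ENSDARG00000091916), of a family known from fishes and not from mammals, was at 55.4, 62.0 and 61.4 CPM in PEA 1, 2 and 3, against 51.5, 50.5 and 52.9 CPM in control 1, 2 and 3. Every PEA library was above every control library, and the log2 fold change was 0.21 ± 0.09 with an interval of 0.01 to 0.40 (edgeR adjusted p = 1.00). With the libraries numbered 2 and 3 alone it was 0.26, again with an adjusted p of 1.00. Ugt5e1 (ENSDARG00000058048) was at 4.57, 3.95 and 4.74 CPM in PEA 1, 2 and 3, against 2.76, 3.83 and 3.66 CPM in control 1, 2 and 3. Its groups were apart by a narrow gap, between PEA 2 and control 2, and the log2 fold change was 0.37 ± 0.18 (edgeR adjusted p = 1.00), or 0.24 without control 1.

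The 3 measured ugt2a genes are relatives of the mammalian UGT2A enzymes, which act on odorants in the nose. Ugt2a4 (ENSDARG00000051940) was at 61.7, 67.4 and 56.4 CPM in PEA 1, 2 and 3, against 77.2, 61.9 and 62.1 CPM in control 1, 2 and 3. Control 1 stood above the rest, and the log2 fold change was -0.12 ± 0.12, or 0.00 without control 1. Ugt2a5 averaged 15.8 ± 0.868 CPM in the PEA group and 16.1 ± 1.80 CPM in the control group (SD, n = 3 each), and ugt2a6 averaged 5.84 ± 0.448 CPM in the PEA group and 6.02 ± 0.817 CPM in the control group. Their intervals on the log2 scale were -0.29 to 0.25 for ugt2a5 and -0.40 to 0.31 for ugt2a6, both short of a 1.5-fold change. Another of the family by name, ugt2b5 (ugt2a7 in the current gene table), had 1 count in PEA 3 and 0 in the other libraries, where 3 counts would be 0.0586 to 0.0697 CPM.

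Ugt8, the galactosyltransferase, was at 205, 241 and 222 CPM in PEA 1, 2 and 3, against 194, 198 and 214 CPM in control 1, 2 and 3. The groups overlapped at PEA 1, and the log2 fold change was 0.14 ± 0.10 (interval -0.08 to 0.36). The ugt1 genes have mammalian relatives that conjugate bilirubin and phenols. Those named ugt1b sit in a row on a chromosome in the order ugt1b5, ugt1b4, ugt1b3, ugt1b2, ugt1b1. The outermost had 9143 (ugt1b5) and 8839 (ugt1b1) counts over the 6 libraries, against 10, 8 and 19 for the 3 between them. Zebrafish ugt1 genes are known to share their last exons, so reads from shared exons may have been split between members or dropped, and each of these values is uncertain. Ugt1b5 averaged 35.1 ± 4.23 CPM in the PEA group and 31.0 ± 2.75 CPM in the control group, with a log2 fold change of 0.18 ± 0.12, or 0.07 without PEA 2. Apart from ugt5a2 and ugt5a5, whose values follow, the other 9 UGT members tested, among them ugt1ab, ugt1b1, ugt5f1 and 3 ugt5c genes, had log2 fold changes of -0.14 to 0.12.

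Glutathione S-transferases had log2 fold changes above 0 in 6 of 11 members tested and below 0 in 5, or 5 above and 6 below with library totals, and none had an edgeR p under 0.05. With the libraries numbered 2 and 3 alone 9 were above 0 and 2 below. Gsto2, of the omega class, which reduces dehydroascorbate, was at 131, 119 and 98.1 CPM in PEA 1, 2 and 3, against 123, 99.8 and 105 CPM in control 1, 2 and 3. The library numbered 1 was highest in both groups, and the log2 fold change was 0.09 ± 0.13. Gstk1 (ENSDARG00000056510), of the mitochondrial kappa class, was at 43.7, 44.3 and 38.5 CPM in PEA 1, 2 and 3, against 44.8, 33.6 and 35.0 CPM in control 1, 2 and 3. It had the lowest p of the class (edgeR adjusted p = 1.00). Control 1 was above the PEA libraries and the other control libraries below them, and with the libraries numbered 2 and 3 alone its log2 fold change was 0.28 (edgeR adjusted p = 1.00). Gstt1a, of the theta class, was at 20.7, 24.7 and 22.6 CPM in PEA 1, 2 and 3, against 25.1, 20.8 and 16.1 CPM in control 1, 2 and 3. Here too control 1 was highest, with 0.14 ± 0.16 over all libraries and 0.37 in the libraries numbered 2 and 3 alone (edgeR adjusted p = 1.00). Gstt1b and gstm, of the theta and mu classes, averaged 81.6 ± 2.91 and 59.5 ± 2.73 CPM in the PEA group, against 83.9 ± 14.1 and 61.0 ± 9.92 CPM in the control group. Control 1 was the highest library for both, and their log2 fold changes of -0.04 ± 0.12 and -0.04 ± 0.13 (SE) were each 0.11 with the libraries numbered 2 and 3 alone. The row named GSTK1 (3 of 4), next to gstk1 on the chromosome, was at 0.750, 0.372 and 0.402 CPM in PEA 1, 2 and 3, against 0.603, 0.606 and 0.703 CPM in control 1, 2 and 3. PEA 1 was above all control libraries and the other PEA libraries below them, and reads could be shared with its neighbour. The other 5 GST members tested, gstm3, gsto1, gstal, gstz1 and gstcd, had log2 fold changes of -0.10 to 0.10.

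**Figure D3:**
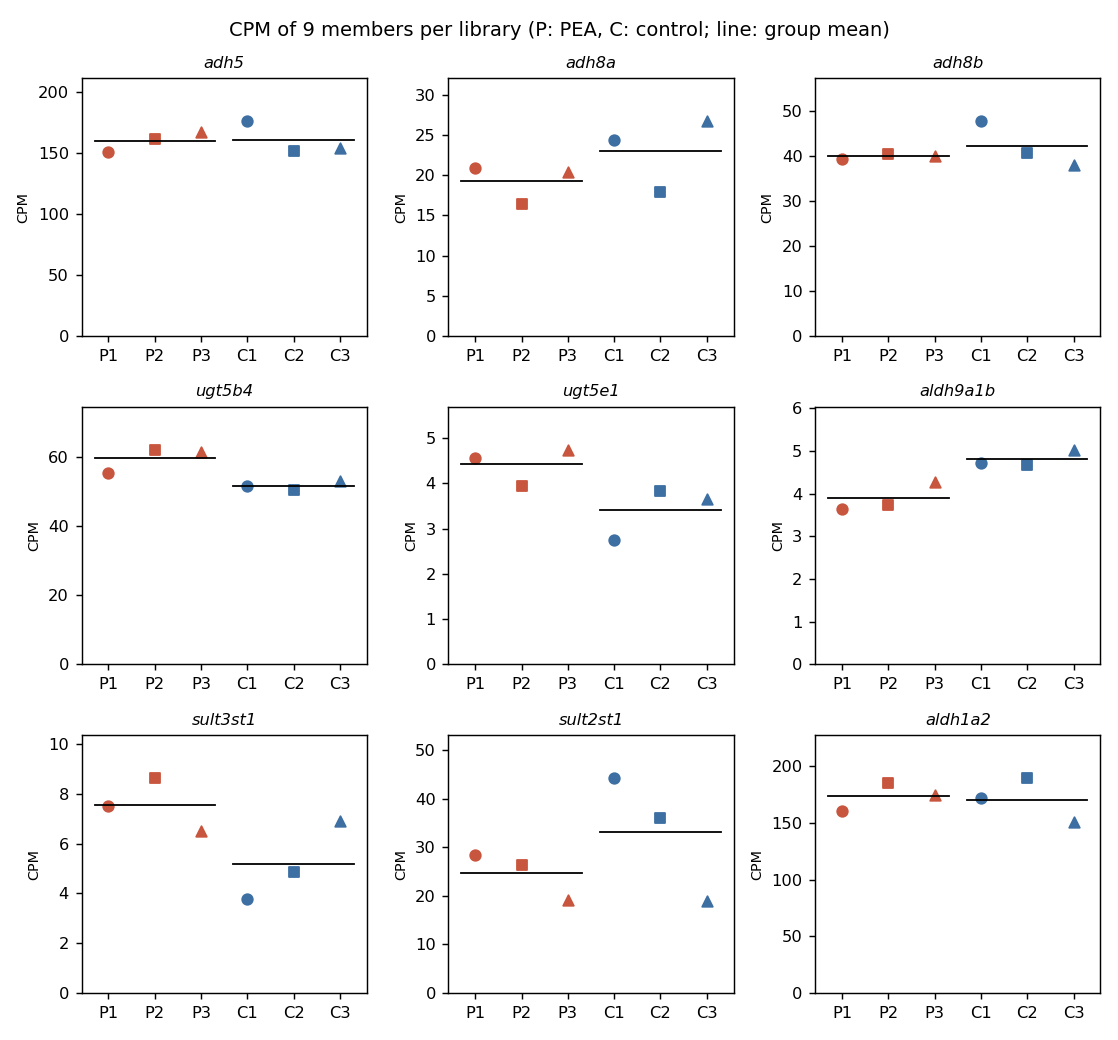
CPM of 9 members in every library, PEA left of control, each point a library and each line a group mean. Ugt5b4 and ugt5e1 have every PEA point above the control points and aldh9a1b has every PEA point below, while sult3st1, with the largest fold change, has control 3 among the PEA libraries (6.91 CPM against 6.52 to 8.62 CPM).

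Sulfotransferases had log2 fold changes above 0 in 6 of 10 members tested and below 0 in 4, or 5 in each direction with library totals. With the libraries numbered 2 and 3 alone 7 were above 0 and 3 below. Sult3st1 (ENSDARG00000009885) was at 7.52, 8.62 and 6.52 CPM in PEA 1, 2 and 3, against 3.75, 4.85 and 6.91 CPM in control 1, 2 and 3. Control 3 lay above PEA 3, so the groups overlapped. The log2 fold change was 0.54 ± 0.23, with an interval of 0.02 to 1.07 (edgeR adjusted p = 1.00), and it ran from 0.37 to 0.81 over the 6 fits that each leave out a library, the highest without control 3. Sult2st1 (ENSDARG00000033170), of the family that acts on steroids, was at 28.5, 26.4 and 19.1 CPM in PEA 1, 2 and 3, against 44.3, 36.1 and 19.0 CPM in control 1, 2 and 3. The library numbered 3 was lowest in both groups and control 3 was the lowest of all, giving a log2 fold change of -0.42 ± 0.28 (edgeR adjusted p = 1.00). This was -0.15 without control 1, -0.70 without control 3 and -0.27 with the libraries numbered 2 and 3 alone. Sult2st3, which held most SULT counts, was at 452, 529 and 372 CPM in PEA 1, 2 and 3, against 486, 418 and 427 CPM in control 1, 2 and 3. PEA libraries were both the highest and the lowest, and the log2 fold change was 0.02 ± 0.14.

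The sult1 family adds sulphate to phenols, catecholamines and thyroid hormone. Sult1st1 averaged 25.9 ± 0.804 CPM in the PEA group and 24.5 ± 3.51 CPM in the control group (SD, n = 3 each), and sult1st5 averaged 15.2 ± 0.753 CPM in the PEA group and 15.4 ± 1.38 CPM in the control group. Sult1st9 averaged 12.1 ± 2.45 CPM in the PEA group and 10.6 ± 1.39 CPM in the control group. These differences were smaller than the spread between replicates or close to it, and the 3 log2 fold changes were 0.08 ± 0.12, -0.02 ± 0.11 and 0.18 ± 0.17 (SE). Sult6b1 was at 53.4, 60.7 and 49.4 CPM in PEA 1, 2 and 3, against 67.1, 49.6 and 50.4 CPM in control 1, 2 and 3. Control 1 was the highest, and the log2 fold change of -0.03 ± 0.14 was 0.13 without it. Sult5a1 had a log2 fold change of 0.15 ± 0.15, and sult1st6 and sult1st7 are described with the variable members.

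The other 15 members had too few counts for the test, namely 6 UGT, 2 GST, 6 SULT and 1 ALDH, with at most 40 counts over the 6 libraries. Ugt5d1 had 0 in all 6 libraries. Sult1st2 had 9, 5 and 7 counts in PEA 1, 2 and 3, against 8, 6 and 5 in control 1, 2 and 3. The other sult3 genes that lie in a row, sult3st3, sult3st4 and sult3st2, had 14, 7 and 19 counts in all. Ugt5g2, ugt2b5, sult1st3 and sult1st4, the rows named GSTK1 (1 of 4) and GSTK1 (4 of 4) and a second row named aldh1l1 also had few counts. At such counts a difference was not detectable.

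Some members differed by 2-fold or more between single libraries. The highest library was at least 2-fold above the lowest in 11 of the 62 members tested (17.7%), against 19.6% of all genes tested. Among members with a mean of at least 5 CPM these were 4 of 47, against 4.91% of all genes at that level. Ugt5a5, described here after its values were seen, was at 8.93, 7.11 and 3.92 CPM in PEA 1, 2 and 3, against 9.18, 3.66 and 3.44 CPM in control 1, 2 and 3. Sult1st6 was at 16.2, 11.1 and 8.81 CPM in PEA 1, 2 and 3, against 17.7, 13 and 9.42 CPM in control 1, 2 and 3. In both genes the library numbered 1 was the highest of its group and the library numbered 3 the lowest. Ugt5a2, a neighbour of ugt5a5, was at 1.52, 1.02 and 1.67 CPM in PEA 1, 2 and 3, against 3.04, 1.23 and 0.683 CPM in control 1, 2 and 3, and sult1st7 was at 2.41, 2.05 and 0.741 CPM in PEA 1, 2 and 3, against 0.881, 0.782 and 2.47 CPM in control 1, 2 and 3. For ugt5a2 the control libraries held both the highest and the lowest value, and for sult1st7 PEA 1, PEA 2 and control 3 were the high libraries. The log2 fold change of ugt5a2 was -0.22 ± 0.49 (SE), or 0.50 with the libraries numbered 2 and 3 alone, and that of sult1st7 was 0.32 ± 0.54, or -0.22. The ugt5a genes lie in a row as near relatives, so reads may be shared among them.

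Values of hormone-responsive genes stood beside these. Fkbp5, a glucocorticoid target that binds the receptor's chaperone, was at 1621, 311 and 322 CPM in PEA 1, 2 and 3, against 1414, 99.3 and 101 CPM in control 1, 2 and 3. Klf9, a transcription factor induced by the same hormone, was at 177, 77.6 and 36.8 CPM in PEA 1, 2 and 3, against 158, 21.6 and 22.1 CPM in control 1, 2 and 3. For both genes the library numbered 1 was highest in each group, and PEA 2 and PEA 3 lay above control 2 and control 3. Tsc22d3, another abundant target, was at 566, 796 and 278 CPM in PEA 1, 2 and 3, against 829, 250 and 149 CPM in control 1, 2 and 3, so PEA 2 and not PEA 1 was highest in its group. Of the 5 targets the library numbered 1 was highest in both groups in 3, and per1a, at 0.279 to 1.59 CPM in PEA libraries and 0.342 to 0.938 CPM in control libraries, was highest in control 2 among the controls. Across the members tested, the deviations of PEA 1 and control 1 from their group means correlated at 0.0099, against 0.17 across all genes. The part of such a response in the values of the enzymes was not tested.

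**Figure D4:**
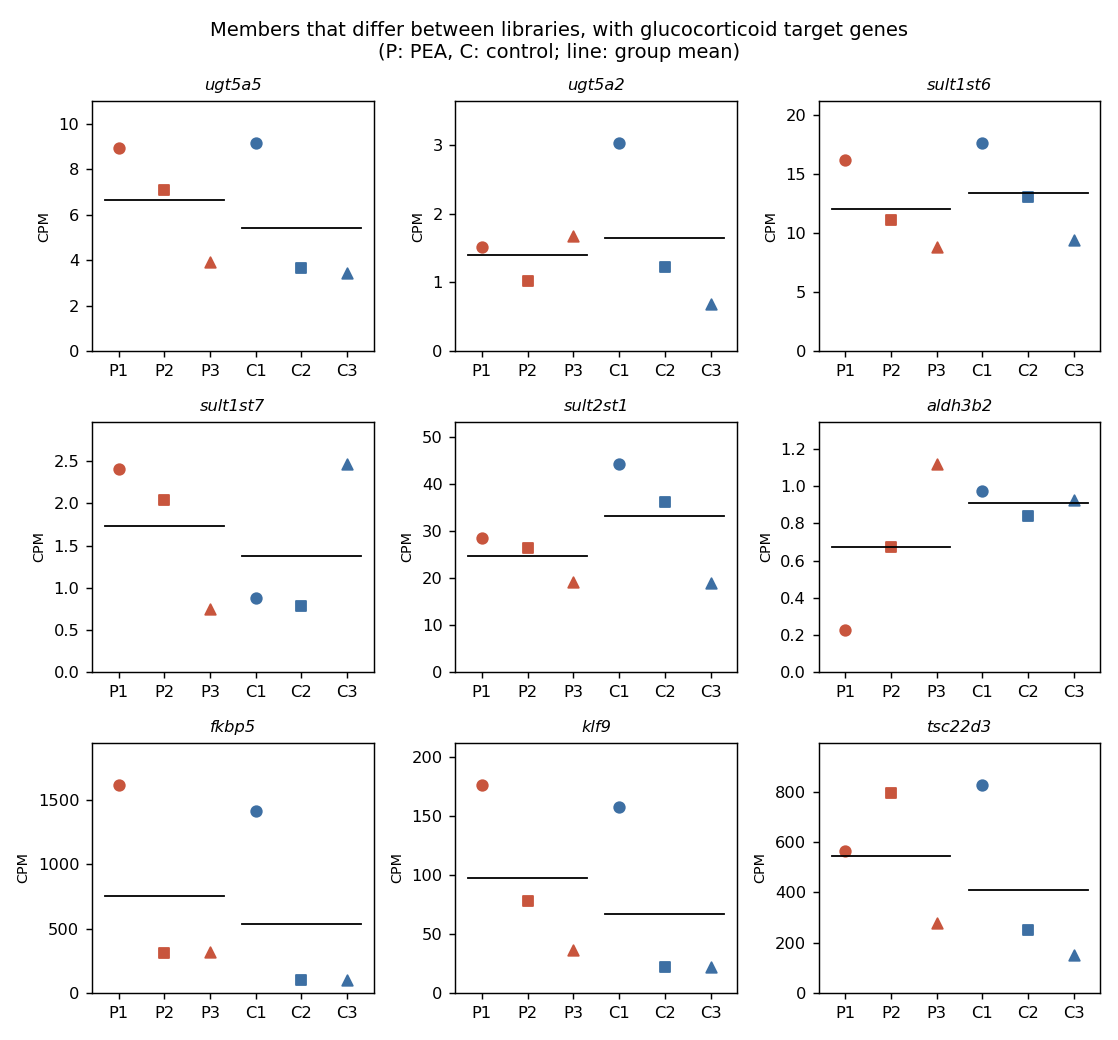
CPM of 6 members that vary between libraries and of the glucocorticoid targets fkbp5, klf9 and tsc22d3, PEA left of control, each point a library and each line a group mean. Fkbp5 is high in the library numbered 1 of both groups (1621 CPM in PEA 1 and 1414 CPM in control 1, against 99.3 to 322 CPM in the rest). Of the members shown, ugt5a5, sult1st6 and sult2st1 are also highest in that library of each group, and ugt5a2, sult1st7 and aldh3b2 are not. These 6 were picked for their spread, ugt5a5 after its values were seen, and do not stand for the members as a set. Across all members tested the deviations of PEA 1 and control 1 from their group means correlated at 0.0099, against 0.17 across all genes.

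Control 1 was the highest library in 25 of the 62 members tested (40.3%), while it was the highest in 22.1% of all genes tested. By class these were 4 of 18 UGT, 6 of 11 GST, 5 of 10 SULT, 8 of 20 ALDH and 2 of 3 ADH members. With library totals in place of TMM the shares were 25.8% of members and 14.9% of all genes. Of 9 markers of sustentacular, goblet and epidermal cells, 3 were highest in this library, krt18, agr2 and krt5, 1 in each list, and the sum of each list was highest there too. The 3 sustentacular markers summed to 536, 556 and 492 CPM in PEA 1, 2 and 3, against 655, 547 and 496 CPM in control 1, 2 and 3, and the 3 goblet cell markers summed to 168, 195 and 160 CPM in PEA 1, 2 and 3, against 202, 153 and 136 CPM in control 1, 2 and 3. Epidermal keratins summed to 2876, 2954 and 3112 CPM in PEA 1, 2 and 3, against 3605, 3327 and 3254 CPM in control 1, 2 and 3. Every PEA sum of this list was thus below every control sum, a separation found in 2.94% of all genes tested. Neither krt5 nor krt4, the tested markers of the list, was separated in this way alone. The log2 fold change of krt4 was -0.004. Krt5 was at 1814, 1816 and 2249 CPM in PEA 1, 2 and 3, against 2475, 2400 and 2239 CPM in control 1, 2 and 3, which overlap. Its log2 fold change was -0.28 ± 0.11 (SE), with an edgeR p of 0.039 before adjustment, and it was not called. Krt18, of the sustentacular list, was at 309, 277 and 206 CPM in PEA 1, 2 and 3, against 372, 246 and 211 CPM in control 1, 2 and 3. The sustentacular markers six4b and sox2 were instead highest in control 2, as was the goblet marker muc5.2. The goblet marker muc5.1 was highest in PEA 1, and the epidermal markers krt4 and cyt1 in PEA 2 and control 3. All 9 of these markers had counts in every library, but muc5.2 (1 to 16 counts) and cyt1 (4 to 11 counts) had too few for the test. Which library was highest for muc5.2 and cyt1 is therefore uncertain. The part of the 9 markers in the enzyme values was not tested. Leaving out control 1 changed the sign of the log2 fold change in 13 of the 35 members named by rule and called 0 members. At the other end, control 3 was the lowest library in 18 of the 62 members tested, and in 15.5% of all genes tested. The ALDH and ADH medians of the log2 fold change were 0.0023 and 0.027 without control 1, and -0.074 and -0.13 without control 3.

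Other genes of the pathway were read from lists of symbols, and none of their members passed the edgeR or the DESeq2 test. Before adjustment abcc5 and nfe2l2a had an edgeR p under 0.05, against 1.66% of all genes. Of 17 genes that supply the cofactors, 16 were tested and 0 were called. Papss2b, which makes the sulphate donor PAPS, was at 190, 201 and 118 CPM in PEA 1, 2 and 3, against 216, 171 and 153 CPM in control 1, 2 and 3, and gclc, which starts glutathione synthesis, was at 103, 105 and 96.2 CPM in PEA 1, 2 and 3, against 105, 99.0 and 103 CPM in control 1, 2 and 3. The groups overlapped in both. Slc35d1b, of a family that carries UDP-sugars into the endoplasmic reticulum, had a log2 fold change of 0.22 ± 0.14. Of 12 other conjugating enzymes found, 11 were tested and 0 were called, among them the microsomal GST mgst3b at 159, 177 and 158 CPM in PEA 1, 2 and 3, against 153, 144 and 147 CPM in control 1, 2 and 3 (log2 fold change 0.15 ± 0.09, edgeR adjusted p = 1.00). Mgst1.2 was at 41.5, 35.1 and 28.7 CPM in PEA 1, 2 and 3, against 47.3, 30.9 and 27.8 CPM in control 1, 2 and 3, again highest in the libraries numbered 1.

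Of 11 export transporters found, 10 were tested and 0 were called. Abcc5, an ABC transporter of organic anions, was at 229, 240 and 293 CPM in PEA 1, 2 and 3, against 273, 353 and 429 CPM in control 1, 2 and 3. The groups overlapped, with a log2 fold change of -0.47 ± 0.17 (edgeR adjusted p = 1.00). Its relative abcc4 had -0.09 ± 0.12. Among 13 regulators found, 12 were tested and 0 were called. Nfe2l2a, which encodes the Nrf2 factor that in many animals switches on GST genes, was at 878, 937 and 888 CPM in PEA 1, 2 and 3, against 768, 769 and 805 CPM in control 1, 2 and 3. Every PEA library was above every control library, as in 2.56% of all genes tested (log2 fold change 0.21 ± 0.08, edgeR adjusted p = 1.00). It was the 1 such gene among the regulators tested. The cofactor list (slc35d1b), the other conjugating enzymes (mgst3b) and the further oxidoreductases also held 1 such tested gene each, and the transporters 0. The further oxidoreductases held 1 gene with every PEA library below as well. Nqo1, a well-known Nrf2 target, was at 556, 605 and 572 CPM in PEA 1, 2 and 3, against 586, 532 and 550 CPM in control 1, 2 and 3, which overlap (0.06 ± 0.09).

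Of 28 further alcohol, aldehyde and ketone oxidoreductases found, 26 were tested and 0 were called, with 11 log2 fold changes above 0 and 15 below. The carbonyl reductases cbr1l and cbr1 had log2 fold changes of 0.07 ± 0.13 and 0.15 ± 0.11. The retinol dehydrogenase rdh8a, with the lowest p of that list, was at 2.23, 2.88 and 1.97 CPM in PEA 1, 2 and 3, against 1.34, 2.13 and 1.45 CPM in control 1, 2 and 3 (0.52 ± 0.25, edgeR adjusted p = 1.00). The rule reads the names in the table, and 7 genes carry a name of these families only in the current gene table. Of these, 5 were tested and 0 were called. The gene listed as zgc:63568, now adh5l, was at 29.5, 34.1 and 22.8 CPM in PEA 1, 2 and 3, against 21.6, 23.9 and 19.8 CPM in control 1, 2 and 3. PEA 3 lay below control 2, and the log2 fold change was 0.40 ± 0.15 (edgeR adjusted p = 1.00). The interval was 0.06 to 0.75, and before adjustment the edgeR p was 0.028. The gene listed as zgc:162356, now gstr, was at 227, 224 and 203 CPM in PEA 1, 2 and 3, against 215, 197 and 190 CPM in control 1, 2 and 3, which overlap (0.12 ± 0.09).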

How the data were processed

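RNA was measured in 3 libraries of PEA fish and 3 of control fish. The authors used FastQC 0.11.9 for quality, Trim Galore 0.6.4 for trimming, Bowtie2 for alignment to the Zv9 build and HTSeq 0.11.2 for counting. The deposited raw counts, which the authors left without normalization, were used for every value here. Not given in the sources used here are the annotation release and how strand and multi-mapping reads were handled. The 6 normalized columns, made with DESeq2 1.24, and the columns of the authors' own comparison (means and fold changes) were not used.

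Groups came from the labels. The test was the quasi-likelihood test of edgeR 4.0.16 in R 4.3.3, with condition alone, TMM scaling and filterByExpr, adjusted over 20628 genes, and an adjusted p under 0.05 was a call. The script was tested on simulated data. Class sums used all members and an exact permutation test over the 6 libraries. Totals per library were 43590575 to 49085973 counts, and 3 counts, taken as the floor, came to 0.0586 to 0.0697 CPM. Replicate pairs differed by 15.8 to 60.5 chi-square units per gene, which cannot show whether the libraries came from separate fish. Each was counted as a sample of its own because the labels call them biological triplicates. Alternatives were DESeq2 1.42.0, its size factors, library totals, other count filters, a replicate block, each library left out, and the libraries numbered 2 and 3 alone.

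Members named in the text were, per class, the 4 with most CPM, the 2 of lowest p, the most variable of at least 1 CPM, every ADH, and members of the ugt2a, aldh2, aldh1a and sult1 families of at least 1 CPM. From each pathway list the 2 with most CPM and the 1 of lowest p were named. A few others were added after their values were seen, namely ugt5a5, members with low counts, adh5l and gstr. Members and lists were chosen with earlier results of these data known. Of the members, 74 were in the current gene name table. Neighbours were read from the order of genes in the RefSeq annotation of assembly GRCz12tu, in which 75 members were placed and 29 lay in 10 groups of neighbours. Transcript lengths and sequences were not used here.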

Additional observations from a re-analysis of the deposited data

How the results depend on the processing

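No setting with a gene test called a member or another pathway gene. Library totals were applied without such a test. Over all genes, the count called was 5 with DESeq2, 1 with the libraries numbered 2 and 3 alone, and 0 to 1 when each library was left out. No named member changed sign with DESeq2, with its size factors, with either other count filter or with the replicate block. Class medians of the log2 fold change ran from -0.039 to 0.13 for GST and from -0.074 to 0.0023 for ALDH when each library was left out, and the GST value of 0.13 was the one without control 1. With the libraries numbered 2 and 3 alone the ALDH median was 0.023, the ADH median 0.039 and the log2 ratio of the ADH sums 0.063. That setting also turned the sign of 13 of the 35 members named by rule, with log2 fold changes of ugt2a4 0.0048, ugt5a2 0.50, gstm 0.11, gstt1b 0.11, sult1st5 0.014, sult1st7 -0.22, sult6b1 0.15, aldh2.1 0.049, aldh2.2 0.26, aldh3b2 0.036, aldh7a1 0.12, adh5 0.11 and adh8b 0.039. Leaving out each library in turn changed the sign of 21 named members, with ranges of ugt2a4 -0.19 to 0.0020, ugt2a5 -0.11 to 0.038, ugt2a6 -0.13 to 0.066, ugt5a2 -0.59 to 0.56, gstm -0.16 to 0.073, gsto2 -0.0042 to 0.19, gstt1a -0.016 to 0.30, gstt1b -0.12 to 0.11, sult1st5 -0.083 to 0.050, sult1st6 -0.42 to 0.11, sult2st3 -0.11 to 0.15, sult6b1 -0.12 to 0.13, aldh1a2 -0.057 to 0.11, aldh1a3 -0.016 to 0.14, aldh2.1 -0.11 to 0.012, aldh2.2 -0.14 to 0.17, aldh6a1 -0.017 to 0.063, aldh7a1 -0.11 to 0.096, aldh9a1a.1 -0.13 to 0.042, adh5 -0.047 to 0.068 and adh8b -0.14 to 0.027. Each of these fits had fewer samples, and no other cause was tested.

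The labels give a PEA and a control library the same number, as in Group 1 Control and Group 1 PEA exposed. The deviations of same-numbered libraries from their group means correlated at 0.17, -0.15 and 0.14 across all genes, which are not independent replicates. Across the members tested the values were 0.0099, -0.052 and -0.20. With 3 libraries per group, these correlations cannot decide whether the numbers pair the libraries. With the number as a replicate block, edgeR called 0 members and 0 genes in all, and the log2 fold changes of ugt5b4 and sult3st1 were 0.21 and 0.58. Across all genes PEA 1 correlated best with its own number, while PEA 2 and PEA 3 did not. With 3 libraries per group, 8 of the 62 members tested kept an interval that reaches a 2-fold change, and class sums could not reach p below 0.1.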
